A study of Mus musculus with 9 samples.

Results

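The 10 genes described here are 3 FOXO transcription factors (Foxo1, Foxo3 and Foxo4) and 7 genes reported as direct FOXO targets: Fbxo32, Cited2, Irs2, Insr, Txnip, Ccng2 and Pink1. They were chosen by name; all 10 were found among the 53342 rows of the count table and all 10 passed the filter on low counts, which left 12511 genes for testing. Their messenger RNA was measured by bulk RNA sequencing in 9 cultures of mouse bone-marrow-derived macrophages, which are macrophages grown from marrow precursors in a dish. The marrow came from wild-type C57BL/6J mice of both sexes aged 8 to 12 weeks, with the bones of different animals kept apart, and each treatment had 3 biological replicates. Cells were exposed for 2 h to Torin-2, to rapamycin or to vehicle, and homogenized mouse spinal cord was then added to all 3 groups for 24 h at 10 mg per mL (1% weight per volume), with the compounds or vehicle still present. The cords were pooled from C57BL/6 mice aged 8 to 20 weeks, so every group, vehicle included, was lipid-fed, and no culture without homogenate was analysed here. Torin-2 blocks the mTOR kinase in both of its complexes, while rapamycin acts mainly on mTORC1 and was the study's control for that complex; the sources used here do not give the doses of either. Because Torin-2 and rapamycin were set against the same 3 vehicle cultures, the 2 comparisons with vehicle are not independent of each other.

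FOXO proteins are transcription factors held in check by insulin and growth factor signalling. Insulin or IGF receptors recruit IRS adaptors, PI3K is activated, and AKT, itself phosphorylated by mTORC2, phosphorylates FOXO proteins, which then bind 14-3-3 adaptors (the YWHA genes) and leave the nucleus. When this signalling is low, FOXO proteins bind DNA and activate genes of protein breakdown, stress resistance and cell cycle exit, and also Insr and Irs2, which code for upstream parts of the same pathway. FOXO activity is set mostly by phosphorylation and location, neither of which was measured here.

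All 10 genes were more abundant in Torin-2 cultures than in vehicle cultures, and all 10 were more abundant in rapamycin cultures than in vehicle cultures. By edgeR's quasi-likelihood test with Benjamini-Hochberg adjustment over all 12511 genes, at an adjusted p under 0.05, 10 of 10 rose with Torin-2, beside 32.5% of all genes tested, and 10 of 10 rose with rapamycin, beside 24.6% of all genes tested. Between the compounds, 9 of 10 were higher with Torin-2 than with rapamycin, beside 24.2% of all genes tested, and Irs2 did not pass. No log2 fold change of the 10 genes was below 0 in any of the 3 comparisons with edgeR, DESeq2 or limma-voom. The median log2 fold change of the 10 was 1.41 for Torin-2 against vehicle, 1.09 for rapamycin against vehicle and 0.37 for Torin-2 against rapamycin, while the medians over all genes were -0.01, 0.00 and 0.00. The genes were chosen with earlier results of these data known, so these counts describe the 10 genes and do not test the choice.

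The size of the change differed widely among them, as the plot of the 10 fold changes shows. Against vehicle, 6 of the 10 rose at least 2-fold with Torin-2, beside 10.1% of all genes tested, and 5 of the 10 did so with rapamycin, beside 3.45%. Between the compounds, 2 of the 10, Fbxo32 and Cited2, were higher with Torin-2 by at least 2-fold, beside 5.17% of all genes tested. The CPM of the 3 Torin-2 libraries lay above that of all 3 vehicle libraries for 10 of 10 genes (35.1% of all genes tested), rapamycin lay above vehicle for 10 of 10 (27.8%) and Torin-2 lay above rapamycin for 9 of 10 (28.9%). Within each replicate number, the order was Torin-2, then rapamycin, then vehicle in all 30 of the 30 combinations of gene and number. Thus 10 of 10 genes kept that falling order in all 3 numbers, beside 15.2% of all genes tested. For the 9 genes whose groups did not overlap, this order follows from the counts above and adds nothing to them.

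**Figure D1:**
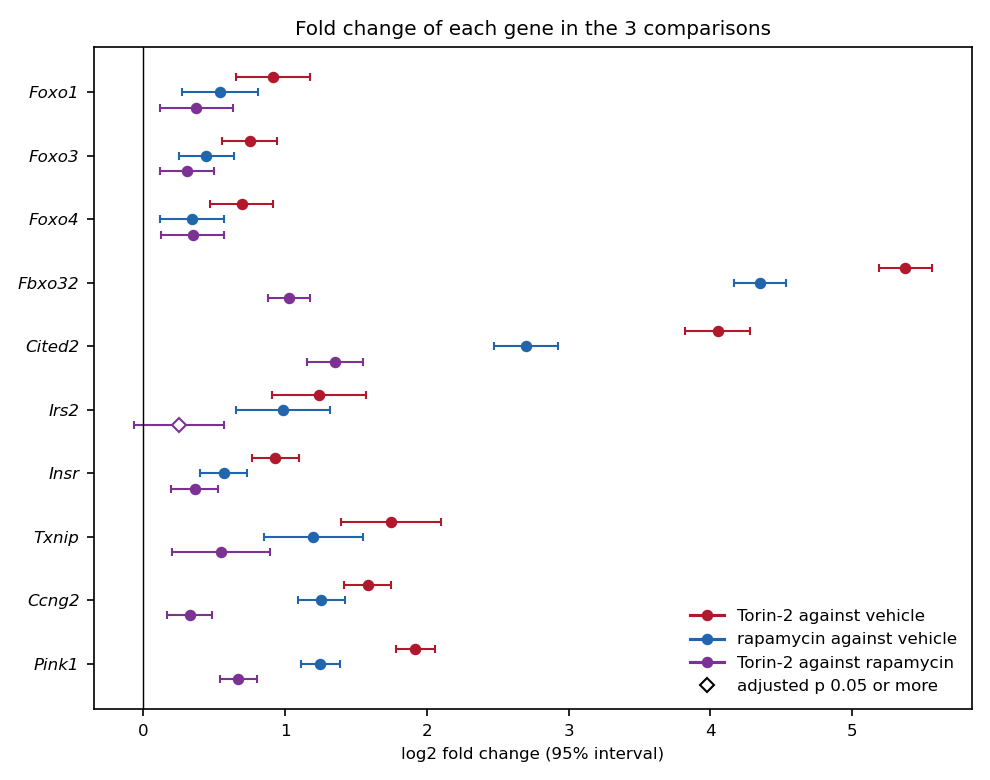
Log2 fold changes (horizontal axis) of the 10 genes (vertical axis) for Torin-2 over vehicle, rapamycin over vehicle and Torin-2 over rapamycin, from edgeR's quasi-likelihood fit of 9 libraries, with 95% intervals as bars; open diamonds mark an adjusted p of 0.05 or more. Fbxo32 (5.37, 4.35 and 1.03) and Cited2 (4.05, 2.70 and 1.35) stand apart, and the interval of Irs2 between the compounds spans 0.

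The promoter sequences of 7 of the 10 genes were found in the RefSeq promoter table (build GRCm38.p6), all but Foxo4, Fbxo32 and Insr. Of these 7, 4 held at least 1 of 3 motifs, searched on both strands of each gene's whole 300-base window. The share of all windows with at least 1 of the 3 was not counted, so this count has no like background. The motifs were the FOXO consensus GTAAACA, which is found in 3.65% of 32851 promoter windows of 300 bases, the insulin response element CAAAACA, found in 6.28%, and the E-box CACGTG, found in 7.15%, which is the core of the site that MondoA and other bHLH factors bind. No letters of 1 motif overlap those of another in the sequences shown. The sequences are printed because they show where the FOXO and E-box letters lie in genes that rose together; they run 5′ to 3′ on the strand of the gene and have the motif letters in capitals. Each is the part of the window before the start of the gene in both annotations, except that Ccng2 is 30 bases before its RefSeq start, which lies 316 bases inside the gene as GENCODE places it. Txnip is chr3:96557707-96557956 on the plus strand, Irs2 is chr8:11008930-11009179 on the minus strand, Cited2 is chr10:17722978-17723217 on the plus strand, and Ccng2 is chr5:93267543-93267572 on the plus strand.
Txnip: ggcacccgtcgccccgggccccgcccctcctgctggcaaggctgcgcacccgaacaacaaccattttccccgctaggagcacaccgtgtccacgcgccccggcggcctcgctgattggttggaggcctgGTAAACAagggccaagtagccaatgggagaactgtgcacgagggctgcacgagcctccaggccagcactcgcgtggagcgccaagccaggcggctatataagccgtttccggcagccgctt
Irs2: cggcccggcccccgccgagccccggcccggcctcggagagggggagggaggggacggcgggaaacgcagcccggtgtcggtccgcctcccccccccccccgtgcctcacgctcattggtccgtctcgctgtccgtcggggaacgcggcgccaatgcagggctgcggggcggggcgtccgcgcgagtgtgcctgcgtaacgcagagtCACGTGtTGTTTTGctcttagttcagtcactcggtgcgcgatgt
Cited2: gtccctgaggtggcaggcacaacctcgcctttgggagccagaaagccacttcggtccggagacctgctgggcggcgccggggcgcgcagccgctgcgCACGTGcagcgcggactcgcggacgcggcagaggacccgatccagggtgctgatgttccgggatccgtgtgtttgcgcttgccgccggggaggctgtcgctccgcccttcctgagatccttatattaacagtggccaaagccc
Ccng2: gggcgtcgcagactCAAAACAaaaacaagg
Txnip holds the FOXO consensus at bases -121 to -115 from its RefSeq start. Only exact letters were searched, so stretches that differ from CACGTG at 1 base were not marked. The Txnip sequence holds such a stretch, CACGAG, in lower case. The lack of a marked E-box there therefore does not show that Txnip lacks a MondoA site. Irs2 holds the E-box at -44 to -39 and, beside it at -37 to -31, TGTTTTG, which is the insulin response element read on the other strand. These positions are from the RefSeq start of Irs2, which lies 471 bases before the start of the gene as GENCODE places it. Cited2 holds an E-box at -153 to -148 and Ccng2 an insulin response element at -16 to -10. The Foxo1, Foxo3 and Pink1 windows held none of the 3 motifs. A match describes the letters of the sequence and says nothing of whether a factor binds there, and factor binding was not measured.

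The FOXO genes themselves rose modestly and in parallel. Foxo1 (ENSMUSG00000044167, chr3:52268336-52353221, GRCm38), the main FOXO of insulin-responsive tissues, had 18.1, 17.2 and 16.2 CPM (reads of the gene scaled to a common TMM-adjusted library size) in Torin-2 replicates 1, 2 and 3, then 14.4, 11.4 and 13.9 CPM in rapamycin replicates and 9.85, 7.81 and 9.58 CPM in vehicle replicates. No group overlapped another. It was higher by 0.91 ± 0.12 (log2 fold change ± SE) with Torin-2 than with vehicle (edgeR adjusted p = 3.03e-05), by 0.54 ± 0.12 with rapamycin than with vehicle (edgeR adjusted p = 0.00306), and by 0.37 ± 0.12 with Torin-2 than with rapamycin (edgeR adjusted p = 0.0209).

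Foxo3 (ENSMUSG00000048756, chr10:42181841-42276755), a FOXO tied to stress resistance and autophagy, had 114, 119 and 115 CPM in Torin-2 replicates 1, 2 and 3, then 96.0, 85.7 and 99.95 CPM in rapamycin replicates and 71.4, 59.2 and 76.5 CPM in vehicle replicates. The Torin-2 cultures lay close together, and in both other groups replicate 2 was lowest. The log2 fold changes were 0.75 ± 0.09, 0.44 ± 0.09 and 0.31 ± 0.09 for Torin-2 and for rapamycin over vehicle and for Torin-2 over rapamycin, with edgeR adjusted p of 1.26e-05, 0.00142 and 0.0128. Foxo4 (ENSMUSG00000042903, chrX:101254528-101260873), the X-linked FOXO, had 20.3, 18.7 and 21.8 CPM with Torin-2, 17.8, 14.3 and 15.8 CPM with rapamycin, and 12.1, 12.1 and 13.3 CPM with vehicle. Its groups did not overlap either. The same 3 log2 fold changes were 0.70 ± 0.10, 0.35 ± 0.10 and 0.35 ± 0.10, with edgeR adjusted p of 7.35e-05, 0.0147 and 0.0134. The rise of Foxo4 with rapamycin was the only call among the 10 genes against vehicle that an alternative ended: its edgeR adjusted p was 0.0578 with library totals alone as scaling, 0.0654 without rapamycin replicate 1 and 0.0555 without vehicle replicate 1.

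The calls between the compounds were near the threshold for all 3 FOXO genes, and leaving out 1 library could end them with the direction kept. Without rapamycin replicate 2, the log2 fold change of Torin-2 against rapamycin was 0.27 for Foxo1, 0.24 for Foxo3 and 0.27 for Foxo4, with edgeR adjusted p of 0.0936, 0.0586 and 0.064. Foxo1 also missed the threshold without Torin-2 replicate 1 (log2 fold change 0.33, edgeR adjusted p = 0.0772) or Torin-2 replicate 2 (0.37, 0.0547). Foxo3 missed it without Torin-2 replicate 2 (log2 fold change 0.28, edgeR adjusted p = 0.0503), and Foxo4 without Torin-2 replicate 3 (0.29, 0.0633) or without replicate 3 of every group (0.29, 0.0822). Without rapamycin replicate 2, in all, 5 of the 10 genes passed as higher with Torin-2 than with rapamycin.

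The make-up of the FOXO pool was much the same in all groups while its size was not. Per kilobase of exon, the 3 genes summed to 23.1 ± 0.234 CPM per kb in Torin-2 cultures, 18.5 ± 1.53 in rapamycin cultures and 13.8 ± 1.44 in vehicle cultures (SD, n = 3 each). Foxo3 made up 66.3 ± 1.66% of that sum with Torin-2, 67.0 ± 1.60% with rapamycin and 66.2 ± 1.80% with vehicle. Foxo4 made up 25.1 ± 1.80%, 24.7 ± 1.41% and 26.2 ± 2.03% in the same order, and Foxo1 made up 8.56 ± 0.579%, 8.25 ± 0.350% and 7.61 ± 0.423%. Each gene's shares overlapped between all groups. Foxo6, the fourth mammalian FOXO gene, had 0 counts in all 9 libraries, which allows up to 0.125 to 0.186 CPM a library (3 counts; counting error only).

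Fbxo32 changed most of the 10 genes against vehicle. It codes for atrogin-1, also called MAFbx, the F-box subunit of an SCF ubiquitin ligase best known from wasting skeletal and cardiac muscle, where FOXO factors switch it on. Fbxo32 (ENSMUSG00000022358, chr15:58175879-58214932, minus strand) had 427, 423 and 452 CPM in Torin-2 replicates 1, 2 and 3, then 189, 225 and 225 CPM in rapamycin replicates and 10.2, 10.4 and 10.8 CPM in vehicle replicates. The vehicle libraries held 214 to 239 reads of it, so its low level there was well counted, and the 3 groups were far apart. Fbxo32 was 41.5-fold higher with Torin-2 than with vehicle (95% interval 36.4 to 47.3, log2 fold change 5.37 ± 0.09, edgeR adjusted p = 6.85e-12) and 20.4-fold higher with rapamycin than with vehicle (17.9 to 23.1, 4.35 ± 0.08, edgeR adjusted p = 5.57e-11). Torin-2 exceeded rapamycin 2.04-fold (1.84 to 2.26, log2 fold change 1.03 ± 0.07, edgeR adjusted p = 4.32e-07). Ordered by log2 fold change, Fbxo32 was number 3 of 12511 genes for rapamycin against vehicle, number 12 for Torin-2 against vehicle and number 680 for Torin-2 against rapamycin.

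Set against other genes per kilobase of exon, Fbxo32 stood far higher in the list with either compound than with vehicle. It averaged 62.3 CPM per kb in Torin-2 cultures, number 648 of 12503 genes with an annotated length, 30.5 CPM per kb in rapamycin cultures, number 1461, and 1.50 CPM per kb in vehicle cultures, number 8623. An annotated antisense gene, Gm15943, shares 186 bases with Fbxo32 exons and averaged 2.06, 1.25 and 0.393 CPM in Torin-2, rapamycin and vehicle cultures. The sources used here do not say whether reads were counted by strand, so a small part of either count may belong to the other gene. The 8 skeletal muscle markers summed to 0.740 to 0.856 CPM with Torin-2, 0.474 to 1.16 with rapamycin and 0.530 to 0.825 with vehicle, with Myh4 and Ttn at 0 counts in every group. Of these 8 markers, 1 was tested and it did not pass in any comparison.

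Fbxo32's partners and relatives did not share its size of change. Among 9 SCF subunits and F-box proteins named in muscle atrophy, 4 rose and 3 fell with Torin-2 (32.5% and 32.9% of all genes tested did so), 1 rose and 2 fell with rapamycin (24.6% and 26.2%), and 4 were higher and 2 lower with Torin-2 than with rapamycin (24.2% and 24.1%). The largest increase was that of Fbxo31, another F-box protein, at 30.4 ± 2.22 CPM with Torin-2, 15.5 ± 2.13 with rapamycin and 17.1 ± 2.45 with vehicle (SD, n = 3 each). Its log2 fold change was 0.83 for Torin-2 against vehicle (edgeR adjusted p = 7.67e-05) and -0.15 for rapamycin against vehicle (edgeR adjusted p = 0.345). Fbxo25, the closest relative of Fbxo32, rose by 0.81 with Torin-2 and by 0.49 with rapamycin (edgeR adjusted p = 6.65e-05 and 0.00492). Rbx1, the RING subunit of SCF ligases, fell by 0.63 and by 0.30 on the log2 scale. Trim63, the other ubiquitin ligase gene classed with Fbxo32 in muscle wasting, had 0 counts in all 9 libraries.

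**Figure D2:**
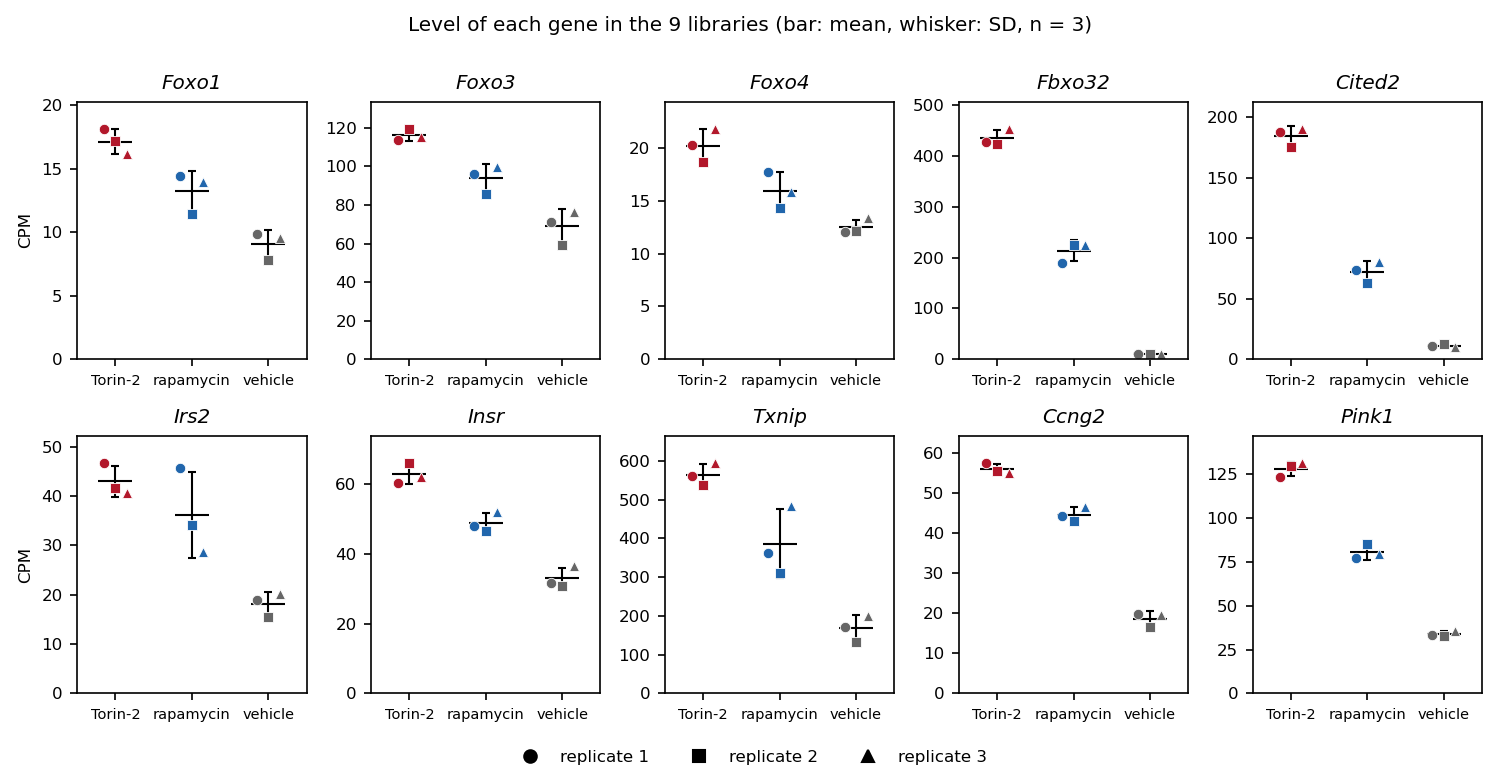
CPM of each of the 10 genes (vertical axis, linear and starting at 0, 1 panel a gene) in the 3 Torin-2, 3 rapamycin and 3 vehicle libraries, with the group mean and SD. In 9 panels the 3 groups do not overlap, and in the Irs2 panel Torin-2 and rapamycin do; Fbxo32 reaches 452 CPM with Torin-2 and stays at or under 10.8 CPM with vehicle.

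Cited2, which codes for a transcriptional co-regulator that binds CBP and p300 and limits HIF-1, followed the same order. Cited2 (ENSMUSG00000039910, chr10:17723218-17725674, plus strand) had 188, 175 and 190.3 CPM in Torin-2 replicates 1, 2 and 3, then 73.4, 63.0 and 80.8 CPM in rapamycin replicates and 10.5, 12.5 and 10.4 CPM in vehicle replicates. No library of 1 group reached the values of another. It was 16.6-fold higher with Torin-2 than with vehicle (95% interval 14.2 to 19.4, log2 fold change 4.05 ± 0.10, edgeR adjusted p = 1.38e-10) and 6.50-fold higher with rapamycin than with vehicle (5.56 to 7.60, 2.70 ± 0.10, edgeR adjusted p = 1.35e-08). Torin-2 exceeded rapamycin 2.55-fold (2.23 to 2.92, log2 fold change 1.35 ± 0.09, edgeR adjusted p = 4.21e-07), the widest gap between the compounds among the 10 genes. Of its family, Cited1 had 0 counts in all 9 libraries and Cited4 did not pass the filter on low counts. Hif1a, the factor CITED2 restrains, fell by 0.87 on the log2 scale with Torin-2 and by 0.58 with rapamycin, at 109 ± 4.28, 133 ± 3.76 and 198 ± 4.95 CPM in Torin-2, rapamycin and vehicle cultures (edgeR adjusted p = 4.16e-08 and 4.2e-06 against vehicle).

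The insulin receptor and its adaptor both rose with each compound. Insr (ENSMUSG00000005534, chr8:3122061-3279617, minus strand), the receptor itself, had 60.5, 66.0 and 62.1 CPM in Torin-2 replicates 1, 2 and 3, then 48.1, 46.5 and 52.0 CPM in rapamycin replicates and 31.7, 30.9 and 36.4 CPM in vehicle replicates. The groups did not overlap. Its log2 fold change was 0.93 ± 0.08 for Torin-2 against vehicle, 0.57 ± 0.08 for rapamycin against vehicle and 0.36 ± 0.07 for Torin-2 against rapamycin (edgeR adjusted p = 5.45e-07, 8.58e-05 and 0.0018). Irs2 (ENSMUSG00000038894, chr8:10984681-11008458, minus strand), the IRS adaptor that passes the receptor's signal to PI3K, had 46.6, 41.7 and 40.6 CPM with Torin-2, 45.6, 34.2 and 28.7 CPM with rapamycin, and 19.0, 15.5 and 20.1 CPM with vehicle. Rapamycin replicate 1 lay within the Torin-2 range and replicates 2 and 3 lay below it, so those groups overlapped while both stood clear of vehicle.

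Irs2 was higher by 1.24 ± 0.15 on the log2 scale with Torin-2 than with vehicle and by 0.98 ± 0.15 with rapamycin than with vehicle (edgeR adjusted p = 1.6e-05 and 0.000228). Between the compounds its log2 difference was 0.25 with a 95% interval of -0.07 to 0.57 (edgeR adjusted p = 0.174), which leaves room for no difference and for one of the size seen in Insr. That call turned on rapamycin replicate 1, without which the log2 difference was 0.45 (edgeR adjusted p = 0.0116), and it also passed with no filter on low counts (0.0191).

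Of 27 tested genes of the proximal pathway other than Insr and Irs2, 11 rose and 7 fell with Torin-2 (32.5% and 32.9% of all genes tested), 12 rose and 5 fell with rapamycin (24.6% and 26.2%), and 8 were higher and 9 lower with Torin-2 than with rapamycin (24.2% and 24.1%). The median log2 fold changes were 0.20, 0.22 and -0.12. Igf1r, the IGF-1 receptor, was at 7.06 ± 0.605 CPM with Torin-2, 3.77 ± 0.609 with rapamycin and 2.89 ± 0.0603 with vehicle; it rose with Torin-2 by 1.29 (edgeR adjusted p = 1.56e-05), and its 0.37 with rapamycin did not pass (edgeR adjusted p = 0.0758). Igf2r, which clears IGF-2 and sorts lysosomal enzymes, rose by 1.37 with Torin-2 and 0.88 with rapamycin. Akt1, a kinase that phosphorylates FOXO proteins, fell with both compounds, and Akt2 passed only as higher with rapamycin than with vehicle and as lower with Torin-2 than with rapamycin.

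Phlpp1, a phosphatase of AKT, rose by 0.99 with Torin-2 and 1.11 with rapamycin. Pik3cg, a PI3K catalytic subunit of leukocytes, rose by 0.79 and 0.75. Enpp1, an inhibitor of the insulin receptor, fell by 1.40 with Torin-2 and by 0.57 with rapamycin. Igf1, a macrophage-made ligand, was at 511 ± 18.9 CPM with Torin-2, 1255 ± 33.2 with rapamycin and 997 ± 30.2 with vehicle; it fell by 0.96 with Torin-2 and rose by 0.33 with rapamycin (edgeR adjusted p = 2.51e-08 and 0.000313). Torin-2 against rapamycin, which tests that difference directly, gave -1.30 (edgeR adjusted p = 1.34e-08).

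Txnip codes for thioredoxin-interacting protein, an arrestin-like protein that binds thioredoxin and lowers glucose uptake. Txnip (ENSMUSG00000038393, chr3:96557957-96561883, plus strand) had 562, 537 and 593 CPM in Torin-2 replicates 1, 2 and 3, then 362, 311 and 484 CPM in rapamycin replicates and 171, 133 and 200.2 CPM in vehicle replicates. Replicate 3 was highest and replicate 2 lowest in each group, and the groups did not overlap. The log2 fold changes were 1.75 ± 0.16, 1.20 ± 0.16 and 0.55 ± 0.16 for Torin-2 over vehicle, rapamycin over vehicle and Torin-2 over rapamycin (edgeR adjusted p = 1.54e-06, 7.84e-05 and 0.0127). Without rapamycin replicate 2 the last of these was 0.41 (edgeR adjusted p = 0.0527). The antisense gene Gm15441 shares 606 bases, 19.4% of the Txnip exons, and averaged 6.73, 4.03 and 2.00 CPM in Torin-2, rapamycin and vehicle cultures, against means of 564, 386 and 168 CPM for Txnip.

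Of 11 tested thioredoxins, arrestin relatives and MondoA factors, 6 rose and 5 fell with Torin-2 (32.5% and 32.9% of all genes tested), 4 rose and 4 fell with rapamycin (24.6% and 26.2%), and 4 were higher and 6 lower with Torin-2 than with rapamycin (24.2% and 24.1%). Arrdc4, the closest relative of Txnip, rose by 0.93 with Torin-2 and 0.52 with rapamycin. Arrdc2, another arrestin relative, was at 12.5 ± 2.68 CPM with Torin-2, 2.08 ± 0.807 with rapamycin and 1.35 ± 0.137 with vehicle; it rose by 3.22 with Torin-2 (edgeR adjusted p = 3.92e-07), while its 0.63 with rapamycin did not pass (edgeR adjusted p = 0.0869). Arrdc3 fell by 0.83 with Torin-2 and rose by 0.24 with rapamycin (edgeR adjusted p = 3.81e-06 and 0.0292). Mlxip, which codes for MondoA, the glucose-sensing factor that drives Txnip, rose by 1.00 with Torin-2 and 0.84 with rapamycin. Slc2a1, the glucose transporter whose surface level TXNIP lowers, rose by 0.56 and 0.89.

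Ccng2 codes for cyclin G2, an unusual cyclin that slows the cell cycle and is induced when growth factor signalling falls. Ccng2 (ENSMUSG00000029385, chr5:93267257-93276231, plus strand) had 57.5, 55.5 and 55.0 CPM in Torin-2 replicates 1, 2 and 3, then 44.3, 43.0 and 46.6 CPM in rapamycin replicates and 19.8, 16.6 and 19.6 CPM in vehicle replicates. Both compounds stood far above vehicle, with a smaller step between them and no overlap. The log2 fold changes were 1.58 ± 0.08, 1.26 ± 0.08 and 0.33 ± 0.07 for Torin-2 and for rapamycin over vehicle and for Torin-2 over rapamycin (edgeR adjusted p = 7.4e-09, 2.67e-07 and 0.0029). Of 3 listed genes tested, 1 rose (Ccni), 1 fell (Ccng1) and 1 did not pass (Gak, a kinase and not a cyclin) with each compound. The shares over all genes tested were 32.5% higher and 32.9% lower with Torin-2 and 24.6% and 26.2% with rapamycin. Ccng1, cyclin G1, a p53 target, fell by 0.53 with Torin-2 and by 0.50 with rapamycin, and Ccni, cyclin I, rose by 2.08 and 1.40, at 511 ± 5.37, 320 ± 27.1 and 121 ± 7.85 CPM in Torin-2, rapamycin and vehicle cultures.

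Pink1 codes for the kinase that accumulates on damaged mitochondria and marks them for removal. Pink1 (ENSMUSG00000028756, chr4:138313409-138326307, minus strand) had 123, 129.8 and 131 CPM in Torin-2 replicates 1, 2 and 3, then 77.0, 85.2 and 79.5 CPM in rapamycin replicates and 33.4, 32.5 and 35.9 CPM in vehicle replicates. The replicates of each group lay close together and the groups were well apart. The log2 fold changes were 1.92 ± 0.06, 1.25 ± 0.06 and 0.67 ± 0.06 for Torin-2 over vehicle, rapamycin over vehicle and Torin-2 over rapamycin (edgeR adjusted p = 4.74e-10, 6.23e-08 and 3.67e-06).

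Of 21 other tested genes of mitophagy, 12 rose and 5 fell with Torin-2 (32.5% and 32.9% of all genes tested), 3 rose and 6 fell with rapamycin (24.6% and 26.2%), and 9 were higher and 6 lower with Torin-2 than with rapamycin (24.2% and 24.1%). Usp30, a mitochondrial deubiquitinase that opposes mitophagy, was at 45.6 ± 0.439 CPM with Torin-2, 18.1 ± 1.43 with rapamycin and 18.1 ± 0.801 with vehicle; it rose by 1.33 with Torin-2 (edgeR adjusted p = 2.44e-08) and gave 0.00 with rapamycin (edgeR adjusted p = 0.994). Optn, a mitophagy receptor, rose by 0.73 with Torin-2. Parl, the protease that cleaves PINK1, fell by 0.97 with Torin-2 and by 0.72 with rapamycin, and Park7, or DJ-1, fell by 0.87 and by 0.31.

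**Figure D3:**
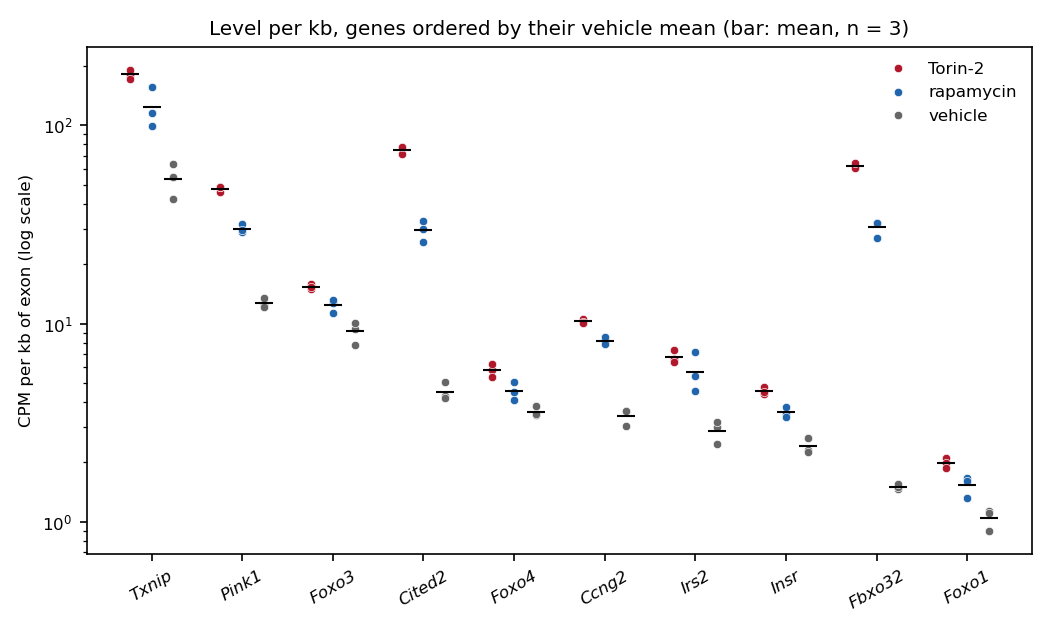
CPM per kilobase of exon (vertical log axis) of the 10 genes, ordered by their vehicle mean, in Torin-2, rapamycin and vehicle cultures; each point is 1 library and each bar the mean of 3. Txnip is highest in every group (181, 124 and 53.8 CPM per kb), and Fbxo32 stands at 62.3 CPM per kb with Torin-2, against 1.50 with vehicle.

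Compared per kilobase of exon, the 10 genes changed places. In vehicle cultures Txnip led with 53.8 CPM per kb, followed by Pink1 with 12.7, Foxo3 with 9.12 and Cited2 with 4.53, and Fbxo32 with 1.50 stood above Foxo1 alone, at 1.05. In Torin-2 cultures Txnip had 181 CPM per kb, Cited2 75.1, Fbxo32 62.3 and Pink1 47.9, while Foxo3 had 15.3. Rapamycin cultures lay between, with Txnip at 124, Fbxo32 at 30.5, Pink1 at 30.1 and Cited2 at 29.5 CPM per kb, the last 3 too close to order. Ccng2, Irs2, Foxo4, Insr and Foxo1 were at 10.3, 6.80, 5.81, 4.57 and 1.98 CPM per kb with Torin-2, and at 3.42, 2.88, 3.59, 2.40 and 1.05 with vehicle.

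Of 31 other reported FOXO targets, 25 were tested. Of these, 15 rose and 8 fell with Torin-2 (32.5% and 32.9% of all genes tested), 15 rose and 6 fell with rapamycin (24.6% and 26.2%), and 10 were higher and 6 lower with Torin-2 than with rapamycin (24.2% and 24.1%). Their median log2 fold changes were 0.61, 0.44 and 0.07. The liver targets G6pc, Pck1 and Igfbp1 had 0 counts in all 9 libraries. Bcl2l11 (BIM), a death-promoting BCL2 relative, rose by 1.33 with Torin-2 and 1.40 with rapamycin, and Bbc3 (PUMA), another, rose by 2.03 and 1.19. Bcl6, a transcriptional repressor, rose with both compounds but was lower with Torin-2 than with rapamycin, at 86.2 ± 4.23 CPM with Torin-2, 105 ± 10.2 with rapamycin and 39.5 ± 4.55 with vehicle (-0.29 for Torin-2 against rapamycin, edgeR adjusted p = 0.018).

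The largest differences between the compounds among these targets were those of Klf2, Gadd45a, Trib1 and Sesn1. Gadd45a, a growth arrest gene, was at 185 ± 38.6 CPM with Torin-2, 42.3 ± 11.5 with rapamycin and 43.2 ± 9.62 with vehicle; it differed between the compounds by 2.13 (edgeR adjusted p = 6.13e-06). Klf2, a quiescence factor, was at 8.33 ± 0.936 CPM with Torin-2, 66.1 ± 4.05 with rapamycin and 36.4 ± 6.40 with vehicle, a difference between the compounds of -2.99 (edgeR adjusted p = 1.7e-08). Trib1, a pseudokinase, fell with Torin-2 by 0.94, and its 0.43 with rapamycin did not pass (edgeR adjusted p = 0.0942); between the compounds it differed by -1.37 (edgeR adjusted p = 0.000246). The sestrins Sesn3 and Sesn1, which restrain mTORC1, fell with both compounds, Sesn3 by 2.43 and by 1.72 and Sesn1 by 1.74 and by 0.87 with Torin-2 and rapamycin.

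**Figure D4:**
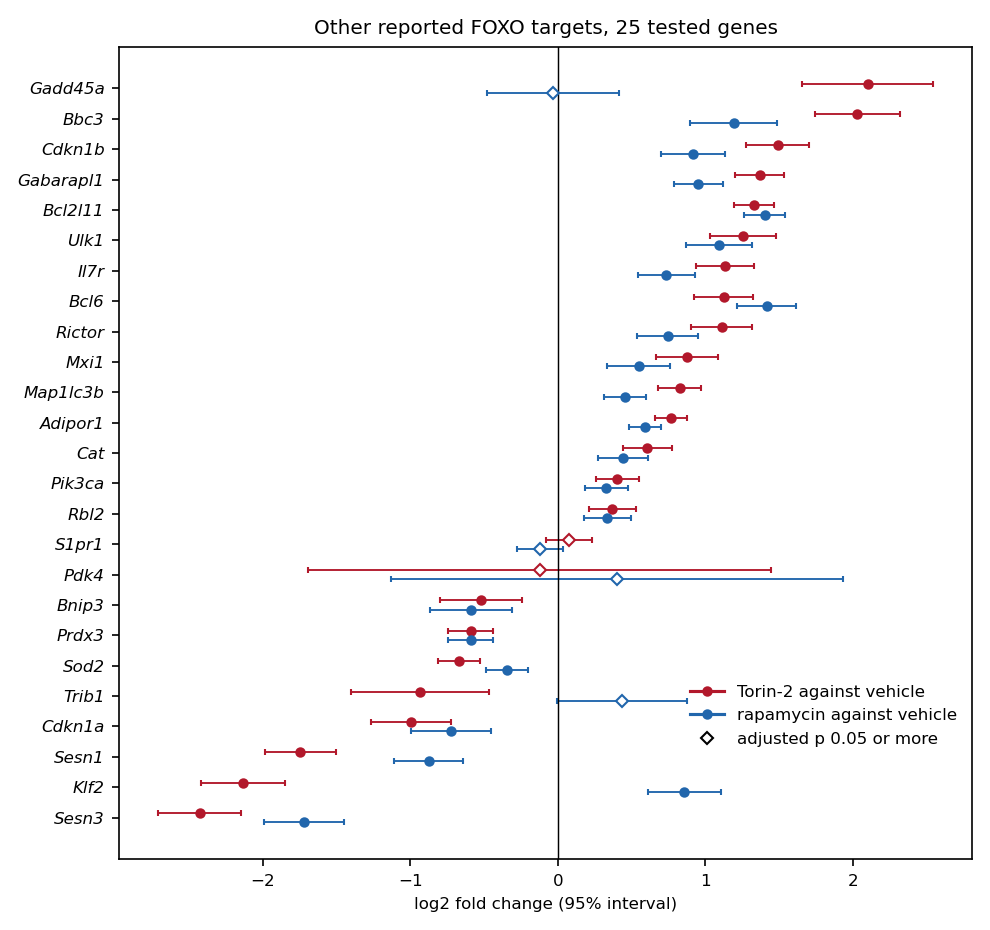
Log2 fold changes (horizontal axis) of the 25 other tested FOXO targets (vertical axis) for Torin-2 against vehicle and rapamycin against vehicle, with 95% intervals as bars; open diamonds mark an adjusted p of 0.05 or more in edgeR's quasi-likelihood test. With Torin-2, 15 rose and 8 fell, between Gadd45a at 2.10 and Sesn3 at -2.43.

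Among 24 FOXO regulators and cofactors, 8 rose and 11 fell with Torin-2 (32.5% and 32.9% of all genes tested), 11 rose and 5 fell with rapamycin (24.6% and 26.2%), and 6 were higher and 9 lower with Torin-2 than with rapamycin (24.2% and 24.1%). Foxk1, a forkhead factor that competes for FOXO sites, rose by 1.80 with Torin-2 and 1.42 with rapamycin, at 50.9 ± 4.56, 39.3 ± 3.61 and 14.7 ± 1.28 CPM in Torin-2, rapamycin and vehicle cultures. Sirt1, a deacetylase of FOXO proteins, rose by 1.23 and 0.55. All 6 listed 14-3-3 genes (Ywhab, Ywhae, Ywhag, Ywhah, Ywhaq and Ywhaz) fell with Torin-2. With rapamycin, Ywhab and Ywhae fell, Ywhag rose and the other 3 did not pass. Ywhab fell by 1.03 with Torin-2 and by 0.51 with rapamycin. Ywhag fell by 0.25 with Torin-2 and rose by 0.27 with rapamycin. Ywhah fell by 0.88 with Torin-2, while its 0.07 with rapamycin did not pass (edgeR adjusted p = 0.276).

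The genes whose pattern over the 9 libraries was nearest to that of Fbxo32 were Mmp13, Mmp12, Cited2, Crebrf and Zfas1, out of 8703 genes averaging at least 5 CPM. Likeness was measured as the root mean square difference of centred log2 CPM, which was 0.480 for Mmp13, 0.556 for Mmp12, 0.724 for Cited2, 0.839 for Crebrf and 0.892 for Zfas1. Mmp13, a collagenase, was at 214 ± 20.9 CPM with Torin-2, 98.7 ± 8.67 with rapamycin and 9.41 ± 2.27 with vehicle. Nearest to Cited2 were Crebrf at 0.235, Gas5 at 0.247 and Cd83 at 0.273, and nearest to Irs2 were Csf2rb at 0.105, Dgka at 0.132 and Igf2r at 0.135. These are descriptions over 9 libraries in 3 groups, and a gene with similar ratios between the 3 groups scores as alike.

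Libraries held 16116666 to 24044329 counts, and in either direction 8182 genes (65.4% of those tested) passed with Torin-2 over vehicle, 6351 (50.8%) with rapamycin over vehicle and 6035 (48.2%) between the compounds. With library totals alone as scaling, the rapamycin calls against vehicle were 2421 higher and 4046 lower, beside 3078 higher and 3273 lower with TMM scaling. The 8 macrophage markers were all present, with summed levels of 14951 to 16763 CPM with Torin-2, 19489 to 21152 with rapamycin and 11807 to 16419 with vehicle. Most of each sum was Lyz2, at 11712 ± 987, 14931 ± 814 and 9752 ± 1843 CPM in Torin-2, rapamycin and vehicle cultures. Of the 8, 3 rose and 2 fell with Torin-2, and 5 rose and 2 fell with rapamycin. Between the compounds, 1 was higher and 6 were lower with Torin-2 than with rapamycin. Csf1r, Mertk and Cd14 rose with both compounds, and Adgre1 and Fcgr1 fell with both. Cd14 changed most, by 2.69 on the log2 scale with Torin-2 and by 3.29 with rapamycin. Markers of other cell types, some of them cells of the spinal cord, were present in every group: the 8 oligodendrocyte markers summed to 366 to 424 CPM with Torin-2, 693 to 847 with rapamycin and 481 to 614 with vehicle, and the 6 astrocyte markers to 26.7 to 32.2, 36.4 to 62.2 and 44.6 to 58.5. Most of the oligodendrocyte sum was Mbp, at 327 ± 25.1, 613 ± 67.7 and 418 ± 52.6 CPM in Torin-2, rapamycin and vehicle cultures. Group means of Mog, Mag, Mal and Cldn11 ran only from 0.256 CPM (Mog with Torin-2) to 1.67 CPM (Mag with Torin-2). The 8 neuron markers summed to 6.08 to 7.71, 10.8 to 14.3 and 8.47 to 12.9 CPM, and the 6 fibroblast markers to 2.38 to 7.17, 12.3 to 78.2 and 8.95 to 37.8 CPM. Of 6 oligodendrocyte markers tested, 4 fell with Torin-2, 3 rose and 1 fell with rapamycin, and 5 were lower with Torin-2 than with rapamycin. Of 3 fibroblast markers tested, all of them collagens, all 3 fell with Torin-2 and all 3 were lower with Torin-2 than with rapamycin. Dcn, which did not pass the filter on low counts, went the other way, averaging 0.504, 0.103 and 0.0931 CPM in Torin-2, rapamycin and vehicle cultures. In each group replicate 3 had the lowest fibroblast sum. Of 5 astrocyte markers tested, 2 fell with Torin-2, 1 rose with rapamycin and 4 were lower with Torin-2 than with rapamycin, and of 5 neuron markers 1 fell with Torin-2 and 3 were lower with Torin-2 than with rapamycin. Over all genes tested, 32.5% rose and 32.9% fell with Torin-2, 24.6% rose and 26.2% fell with rapamycin, and 24.2% were higher and 24.1% lower with Torin-2 than with rapamycin. Syt1 was at 0 counts with Torin-2 and Lum at 0 counts with rapamycin and with vehicle. Endothelial markers reached at most 9.46 CPM, neutrophil markers 4.89, adipocyte markers 1.06 and lymphocyte markers 0.160 in any library. Rapamycin was highest for the macrophage and oligodendrocyte sums. Torin-2 was lowest for the oligodendrocyte, neuron, astrocyte and fibroblast sums. The part of these cells in the results was not tested. In bulk RNA, a change in the number of cells that express a gene and a change in its RNA per cell cannot be told apart.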

How the data were processed

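The deposited table holds raw counts per gene of 9 libraries, made from 100 bp paired reads of Nugen mRNA libraries; per the submitters' processing notes, STAR 2.5.2a, FastQC and bcl2fastq were used with build mm10 (GRCm38.p6). The counting tool and its strand setting were not stated there. Counts were fitted with edgeR 4.0.16 in R 4.3.3 by a quasi-likelihood test, all 9 libraries in 1 fit, TMM scaling (factors 0.955 to 1.05), filterByExpr and Benjamini-Hochberg adjustment over 12511 genes. The code was tested on simulated data first. Errors after ± are SDs for CPM and SEs for log2 fold changes.

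Totals of 16116666 to 24044329 counts and a common biological variation of 9.96% set the precision; intervals of fold changes include the spread between replicates, while floors for 0 counts cover counting error only. Replicates differed by more than sampling noise. The labels number the replicates in each group and say that bones of different animals were kept apart, without saying that a number marks 1 animal. Same-numbered libraries deviated together in all 9 pairs (r 0.168 to 0.5 across genes), against -0.358 to 0.162 in the other 18 pairs. All negative values involved a replicate 3. Among replicates 1 and 2 the gap was small: 0.168 for Torin-2 replicate 2 and vehicle replicate 2, beside 0.162 for rapamycin replicate 2 and Torin-2 replicate 1. The numbers may therefore mark pairs, less clearly for replicates 1 and 2. The reported values come from the fit without a block, and the block enters as an alternative.

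Lengths and coordinates come from GENCODE M21 on GRCm38, in which 53237 of the 53342 identifiers were found. The 10 genes and all lists were chosen with earlier results of these data known. Named in the text are all 10 genes, up to 4 called genes per list and comparison with the largest change at a mean of at least 1 CPM, genes that did not pass or had 0 counts where they bear on a list, and the 5 genes most like Fbxo32 and the 3 most like Cited2 and Irs2. Alternatives were other scalings, filters, DESeq2 1.42.0, limma-voom (limma 3.58.1), fits of the compared groups only, and leaving out libraries. Some genes of the lists are counted but not reported here by name.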

Additional observations from a re-analysis of the deposited data

How the results depend on the processing

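Across 18 alternatives, no log2 fold change of the 10 genes turned round: of 540 values, 526 kept their side of the threshold, 12 lost it and 2 gained it. The number of the 10 genes higher with Torin-2 than with rapamycin, 9 in the report, was 5 without rapamycin replicate 2 and ranged from 5 to 10 when 1 library was left out. Leaving out 1 library gave 10 to 10 for Torin-2 against vehicle and 9 to 10 for rapamycin against vehicle, and the genes called over the whole table were 7511 to 8390, 5457 to 6258 and, between the compounds, 5168 to 6174. With the replicate number as a block, to allow for possible pairing, no call among the 10 genes changed. Genes called were then 8713, 7003 and 6831 for Torin-2 over vehicle, rapamycin over vehicle and between the compounds. The calls between the compounds that were lost when 1 library was left out were those of Foxo1, Foxo3, Foxo4 and Txnip.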
